A study of Mus musculus with 13 samples.

Results

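The 7 genes described here encode neurotrophic ligands and receptors of the mouse cortex: the ligands Bdnf and Ntf3, the Trk receptors Ntrk2 and Ntrk3, the low-affinity neurotrophin receptor Ngfr, and the GDNF-family co-receptors Gfra1 and Gfra2. They were chosen by gene symbol, and each had 1 of the 53832 gene entries in the deposited table. The libraries were made from poly(A) RNA of right cortices of perfused mice. There were 4 libraries of APP/PS1 mice given trazodone, 3 of APP/PS1 mice given distilled water and 6 of wild-type (WT) mice given distilled water, and all titles state 2 weeks. APP/PS1 mice carry a human APP transgene with familial Alzheimer's disease mutations, together with a mutant presenilin 1 (PS1). Trazodone is an antidepressant that acts on serotonin receptors and serotonin reuptake. Trazodone was given to APP/PS1 mice only. The sources used here do not give the APP/PS1 line or its promoter, the dose, the route, the age or the sex. No source says that each library is a separate mouse, so p-values measure the spread between these libraries, which may be technical in part.

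Neurotrophins are secreted growth factors that support the survival of neurons and the strength of their synapses. Bdnf signals through the kinase receptor TrkB, encoded by Ntrk2, and Ntf3 mainly through TrkC, encoded by Ntrk3, while p75, encoded by Ngfr, binds every mature neurotrophin and has a high affinity for their uncleaved precursors. Gfra1 and Gfra2 do not bind neurotrophins: they are lipid-anchored co-receptors that present GDNF and neurturin, in that order of preference, to the kinase Ret. In the cortex, Bdnf is made by excitatory neurons in response to activity, TrkB is present on neurons and, as a form without a kinase domain, on astrocytes, and p75 in adults is carried mostly by the axons of cholinergic neurons whose cell bodies lie in the basal forebrain.

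Estimated depth was 30.6 to 36.8 M fragments for each library. How values followed base composition set the 3 libraries of APP/PS1 water apart: each library's log2 TPM was centred on the 13-library mean and regressed on gene GC content, and the slope per 10 percentage points was 0.0881 ± 0.0506 with trazodone, -0.196 ± 0.0365 in APP/PS1 water and 0.0390 ± 0.0493 in WT water (SD). A correction for GC content and gene length was therefore computed as well. Its values for the 7 genes are in the plot of log2 fold changes. The counts of called genes in each list are given with and without it. The slopes of the APP/PS1 water libraries all lay below those of the other groups. The correction therefore cannot separate a technical trend from a real difference between groups that follows GC content. Which of these it removed was not tested, and this holds for every call lost or gained after it. The mitochondrial share of TPM also set these libraries apart, at 8.96 to 10.7% in APP/PS1 trazodone, 13.1 to 15.01% in APP/PS1 water and 9.07 to 12.3% in WT water. When TPM were rescaled without mitochondrial, ribosomal protein and hemoglobin genes, the call count between the water groups was still 1 of the 7 genes, with Gfra2 at -0.38 (adjusted p = 0.0013). App, to which reads of a human transgene can align, measured 2702 ± 185 TPM in APP/PS1 trazodone, 1928 ± 188 TPM in APP/PS1 water and 905 ± 121 TPM in WT water, so every library matched its genotype label. Cortical identity was also checked: the summed level of 14 excitatory neuron markers was 4899 to 5384 TPM in APP/PS1 trazodone, 3347 to 3544 TPM in APP/PS1 water and 3674 to 5538 TPM in WT water, and none of these genes was at 0 in any library. Of 12 microglia markers 10 rose in APP/PS1 water against WT water, where 6.19% of all genes rose. After correction 10 rose, where 12.6% of all genes were called in either direction. The summed levels were 1170 to 1517 TPM in APP/PS1 trazodone, 1240 to 1636 TPM in APP/PS1 water and 370.7 to 462.1 TPM in WT water. The part of these markers in the values of the 7 genes was not tested. WT library 6 stood apart: the summed level of 7 choroid plexus markers was 2234 TPM there and 494.3 TPM in WT library 3, against 11.8 to 31.7 TPM in the other libraries, and the markers of the striatum and of cholinergic neurons were also highest in WT library 6. Without that library 1 of the 7 genes was called in each comparison with WT water, as with it, namely Gfra2 at -0.46 (adjusted p = 6.04e-04) in APP/PS1 water and -0.31 (adjusted p = 0.0271) in APP/PS1 trazodone.

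On the TPM scale (a share of all transcripts, scaled for their length), the 7 genes spanned a wide range of levels. Ntrk2 was the most abundant, with a mean of 246.8 TPM over the 13 libraries. Gfra2 averaged 52.2 TPM and Ntrk3 51.0 TPM, with library ranges that overlapped, so their order was within the spread. Gfra1 followed at 33.2 TPM and Bdnf at 17.8 TPM, and no library of Bdnf reached the lowest library of Gfra1. Ntf3 at 3.26 TPM and Ngfr at 2.15 TPM were the least abundant and overlapped. All 7 exceeded the minimum mean of 0.5 TPM used for testing. Their variation over the 13 libraries was unequal: the coefficient of variation was 7.57% for Ntrk3, 7.67% for Ntrk2, 13.1% for Gfra1, 14.98% for Gfra2, 16.8% for Bdnf, 21.02% for Ntf3 and 51.7% for Ngfr.

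**Figure D1:**
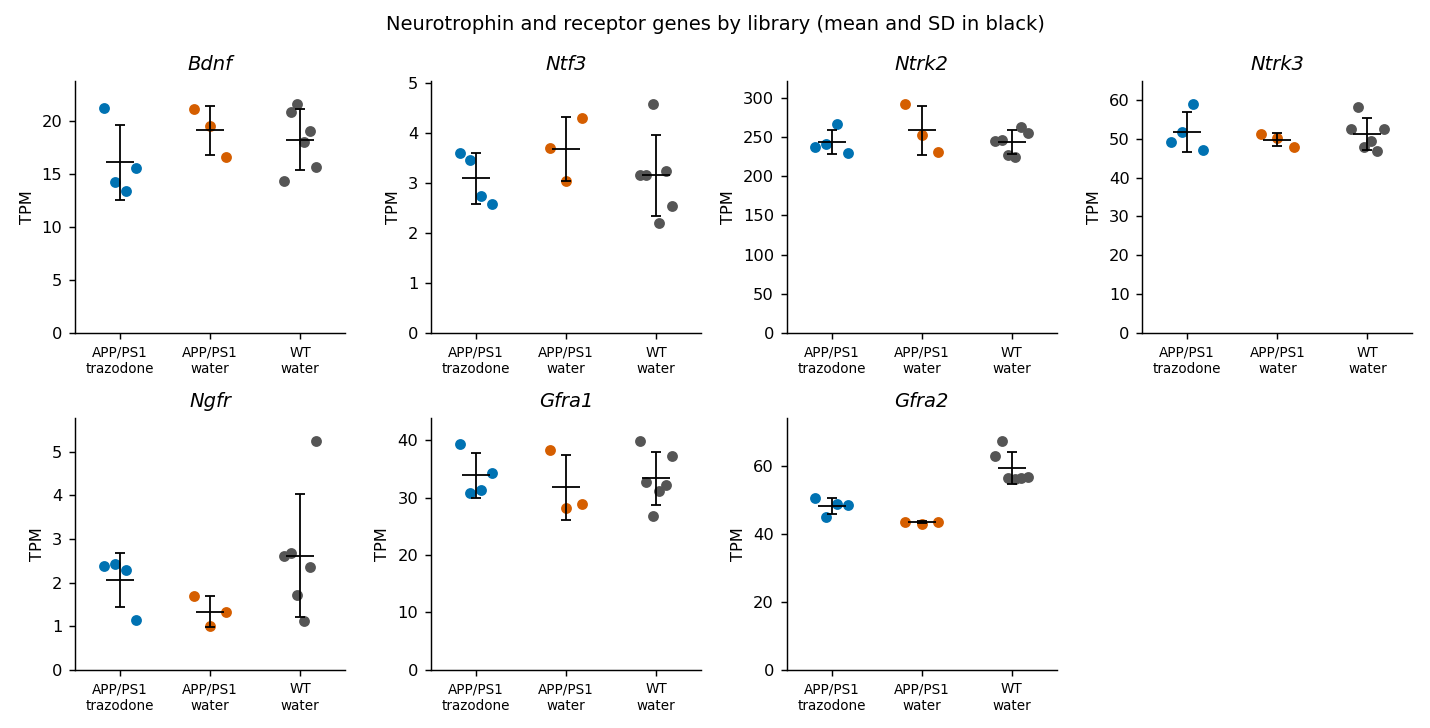
Level in TPM (vertical axes, each from 0) of the 7 genes in every library, by group; points are libraries, black bars the mean and SD (4 APP/PS1 trazodone, 3 APP/PS1 water and 6 WT water). Of the 7, Gfra2 is the gene whose groups do not overlap: 45.1 to 50.5 TPM in APP/PS1 trazodone, 43.0 to 43.6 TPM in APP/PS1 water and 56.3 to 67.5 TPM in WT water. The share of all genes with such groups was not counted.

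Differences between groups were tested with limma over 18612 genes, and an adjusted p (Benjamini-Hochberg over all of them) under 0.05 was called a change. In APP/PS1 water against WT water, the comparison of genotypes, 1 of the 7 genes was lower and 0 were higher, where 23.7% of all tested genes were called, 17.5% lower and 6.19% higher (1153 higher and 3260 lower, against 2003 and 2054 with median-ratio scaling). Their median log2 fold change was -0.04, beside -0.10 for all tested genes. With trazodone against APP/PS1 water, the comparison of treatments, 0 of the 7 were called by limma and 0 had an unadjusted p under 0.05, where 16.4% of all genes were called, 12.5% higher and 3.92% lower (2319 higher and 730 lower, against 1636 and 1384 with median-ratio scaling). After the GC and length correction 0 of the 7 were called here too, where 4.08% of all genes were, and their uncorrected median was 0.05, beside 0.07 for all genes. Against WT water, 1 of the 7 was lower in APP/PS1 trazodone, where 2.23% of all genes were called, 0.258% lower and 1.97% higher, and Gfra2 was again the 1 called after correction, where 2.58% of all genes were. The other 6 genes had log2 fold changes of -0.21 (Ngfr) to 0.03 (Gfra1) in APP/PS1 trazodone against WT water, with limma adjusted p of 0.628 or more. The called gene was Gfra2 in both comparisons with WT, and those comparisons share the 6 WT libraries. For 6 of the 7 genes the ranges of the groups overlapped in each of the 3 comparisons, and Gfra2 was the exception in all of them. The share of all tested genes whose groups do not overlap was not counted, so this does not set Gfra2 apart from genes outside the 7.

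**Figure D2:**
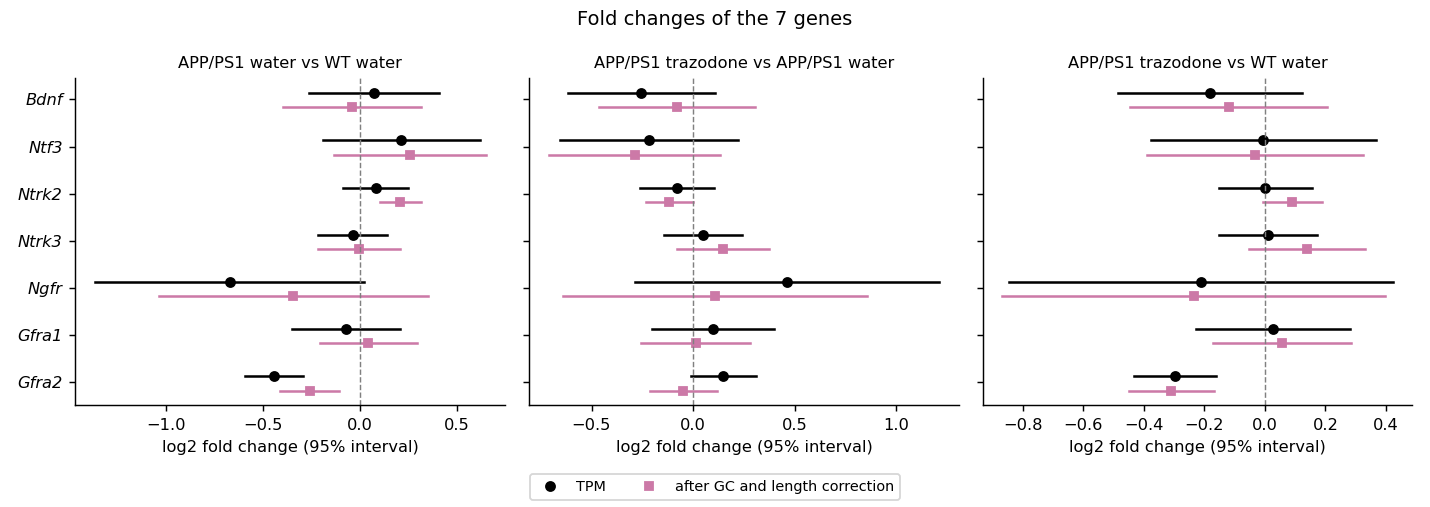
Log2 fold changes (horizontal axes) with 95% intervals of the 7 genes in the 3 comparisons, from the deposited TPM (black circles) and after correction for GC content and length (pink squares). The Gfra2 intervals lie below 0 in both comparisons with WT water, and the Ntrk2 interval in APP/PS1 water against WT water lies above 0 only after the correction.

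Bdnf, the ligand of TrkB, did not pass the test in any comparison. It measured 21.3, 14.2, 13.4 and 15.6 TPM in the APP/PS1 trazodone libraries, against 21.1, 19.5 and 16.6 TPM in the APP/PS1 water libraries. In WT water its lowest library had 14.3 TPM, the median was 18.5 TPM and the highest library had 21.6 TPM. Trazodone library 1 was close to the highest libraries of both water groups and the other trazodone libraries lay low, so the groups overlapped. Its log2 fold change was -0.25 ± 0.17 (SE) in APP/PS1 trazodone against APP/PS1 water (95% interval -0.61 to 0.11; limma adjusted p = 0.343; -0.08 after GC and length correction) and 0.07 ± 0.16 in APP/PS1 water against WT water (-0.26 to 0.41; adjusted p = 0.774). The first interval corresponds to a Bdnf level with trazodone of 0.653 to 1.08 times that with water. An antisense gene, Gm45346, overlaps the Bdnf locus (chromosome 2, 109674700 to 109727007, GRCm38, plus strand) and had at most 0.554 TPM.

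Bdnf is transcribed from several promoters, and binding of CREB to the motif TGACG, the half-site of the cyclic AMP response element, is part of its induction by activity. The promoter windows of RefSeq (250 bases before to 50 after each start, GRCm38.p6) held 12 windows for 5 of the 7 genes; Gfra2 and Ntrk3 had none. The motif, searched on both strands, was in 1 of the 12, a Bdnf window, where it reads CGTCA on the plus strand; 20.8% of 32851 such windows hold it. The full palindrome TGACGTCA was in 0 of the 12 and in 1.79% of all windows. The window is shown because the regulators and co-activators of CREB described further on are read beside it; the half-site is in capitals.
Bdnf, chr2:109692186-109692485 (GRCm38.p6, plus strand): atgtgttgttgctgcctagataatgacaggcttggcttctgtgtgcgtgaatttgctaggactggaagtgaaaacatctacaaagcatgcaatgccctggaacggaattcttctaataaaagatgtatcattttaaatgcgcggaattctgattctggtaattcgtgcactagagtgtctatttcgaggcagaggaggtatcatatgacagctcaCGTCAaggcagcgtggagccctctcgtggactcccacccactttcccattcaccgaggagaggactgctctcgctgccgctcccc

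Ntf3, the ligand of TrkC, was near the low end of the measured range, and its libraries spread widely within each group. It had 3.60, 3.47, 2.74 and 2.59 TPM in APP/PS1 trazodone, against 3.71, 3.04 and 4.32 TPM in APP/PS1 water. WT water ran from 2.21 TPM through a median of 3.17 TPM to 4.59 TPM, so both the lowest and the highest library of the series were WT. Its log2 fold change was -0.22 ± 0.20 in APP/PS1 trazodone against APP/PS1 water (adjusted p = 0.522) and 0.21 ± 0.19 in APP/PS1 water against WT water (adjusted p = 0.455). The level of Bdnf was 5.22 ± 0.907 times that of Ntf3 in APP/PS1 trazodone, 5.33 ± 1.33 times in APP/PS1 water and 5.99 ± 1.34 times in WT water (mean of library ratios ± SD), a ratio whose groups overlapped.

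Ntrk2, the receptor of Bdnf (chromosome 13, 58806569 to 59133970), showed little difference on the TPM scale. Its level was 237.5, 240.7, 266 and 229.8 TPM in APP/PS1 trazodone, against 291.9, 251.9 and 230.5 TPM in APP/PS1 water. WT water had a lowest library of 224.3, a median of 245.3 and a highest library of 262.1 TPM. APP/PS1 water library 1 was the highest of all, and library 3 of the same group was within the range of the other groups. The log2 fold change in APP/PS1 water against WT water was 0.08 ± 0.08 (95% interval -0.09 to 0.25; limma adjusted p = 0.503). After correction for GC content and length it was 0.21 ± 0.05 (0.10 to 0.31; adjusted p = 0.0143) and Ntrk2 counted as higher, where 12.6% of 18253 genes were called.

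Some astrocyte markers moved in the same comparison. The summed level of 12 astrocyte markers was 3465 to 3779 TPM in APP/PS1 trazodone, 3316 to 3686 TPM in APP/PS1 water and 2254 to 2586 TPM in WT water. In APP/PS1 water against WT water 5 of the 12 rose and 0 fell, with and without the correction. Of all genes 6.19% rose there, and 12.6% were called in either direction after correction. Gfap, the intermediate filament of reactive astrocytes, was among the 5 (2.66 ± 0.17). The median log2 fold change of the 12 was 0.22, beside -0.10 for all genes, so the summed level does not stand for each marker. The part of the astrocyte markers in the Ntrk2 values was not tested. Ntrk2 with trazodone stood at -0.08 ± 0.08 against APP/PS1 water (adjusted p = 0.581) and at 0.00 ± 0.07 against WT water (adjusted p = 0.995). The table gives 1 value per gene, so the TrkB form with a kinase domain and the form without it cannot be told apart.

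Ntrk3, the receptor of Ntf3 (chromosome 7, 78175959 to 78738012), was the steadiest of the 7. It had 49.1, 51.6, 58.9 and 47.0 TPM in APP/PS1 trazodone, against 51.1, 50.2 and 47.9 TPM in APP/PS1 water, and WT water ran from 46.7 TPM through a median of 51.0 TPM to 58.1 TPM. The groups covered nearly the same range. Ntrk3 had a log2 fold change of 0.05 ± 0.09 with trazodone against APP/PS1 water (95% interval -0.14 to 0.24) and -0.04 ± 0.08 in APP/PS1 water against WT water (-0.21 to 0.14), neither passing the test (adjusted p = 0.760 and adjusted p = 0.780). An antisense gene, Gm9885, lies within the Ntrk3 locus and had 1.20 to 4.44 TPM, and whether the libraries kept strand is not stated. The level of Ntrk2 was 4.73 ± 0.172 times that of Ntrk3 in APP/PS1 trazodone, 5.18 ± 0.473 times in APP/PS1 water and 4.78 ± 0.460 times in WT water (mean of library ratios ± SD).

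Ngfr, which encodes p75 (chromosome 11, 95568818 to 95587735), varied most between libraries. It had 2.38, 2.43, 2.29 and 1.14 TPM in APP/PS1 trazodone, against 1.69, 0.994 and 1.32 TPM in APP/PS1 water. WT water had a lowest library of 1.11, a median of 2.48 and a highest library of 5.26 TPM. WT library 6 was far above the other WT libraries, while WT library 4 lay among those of APP/PS1 water. Ngfr had a log2 fold change of 0.46 ± 0.35 with trazodone against APP/PS1 water (95% interval -0.29 to 1.21; adjusted p = 0.414) and -0.67 ± 0.32 in APP/PS1 water against WT water (-1.37 to 0.02; adjusted p = 0.153); the first was 0.11 (adjusted p = 0.915) after GC and length correction, and that in APP/PS1 water against WT water was -0.34 (adjusted p = 0.542) after GC and length correction, and -0.47 (adjusted p = 0.219) without WT library 6.

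Genes of cholinergic neurons, listed as markers of the basal forebrain, were high or low together with Ngfr in some libraries and not in others. The summed level of 6 such markers (Chat, Slc18a3, Slc5a7, Lhx8, Gbx1 and Isl1) was 5.86, 6.30, 9.30 and 3.74 TPM in APP/PS1 trazodone, against 5.16, 7.10 and 3.08 TPM in APP/PS1 water, and it ran from 6.01 to 27.1 TPM in WT water. WT library 6, highest in Ngfr, was highest in this sum, and trazodone library 4, lowest of its group in Ngfr, was lowest of its group in the sum. APP/PS1 water library 2, lowest of the series in Ngfr, had the highest sum of its group, and WT library 4, lowest of its group in Ngfr at 1.11 TPM, had a sum of 10.5 TPM, while WT library 2 had 2.68 TPM of Ngfr and the lowest WT sum, 6.01 TPM. Of the 6 markers, 0 rose and 1 fell in APP/PS1 water against WT water, where 17.5% of all genes fell. The 1 that fell was Slc18a3, the vesicular acetylcholine transporter, at -0.94 ± 0.30 (adjusted p = 0.0373), a gene picked out after its value was seen. After GC and length correction Slc18a3 was at -0.56 (adjusted p = 0.287) and 0 of the 6 were called, where 12.6% of all genes were. Lhx8, a transcription factor of these neurons, was listed at 0 in 1 APP/PS1 water library. Markers of the striatum, which adjoins the basal forebrain, had a summed level of 421.1 to 832.9 TPM in APP/PS1 trazodone, 307 to 469.5 TPM in APP/PS1 water and 450.6 to 980.5 TPM in WT water. Of these 10 markers 6 fell in APP/PS1 water against WT water, where 17.5% of all genes fell. After correction 2 fell, where 12.6% of all genes were called in either direction. In each group the library with the highest striatal sum also had the highest cholinergic sum, and the same held for the lowest. The cholinergic sum therefore cannot be read as a measure of the basal forebrain alone. The part of either marker set in the Ngfr values was not tested.

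**Figure D3:**
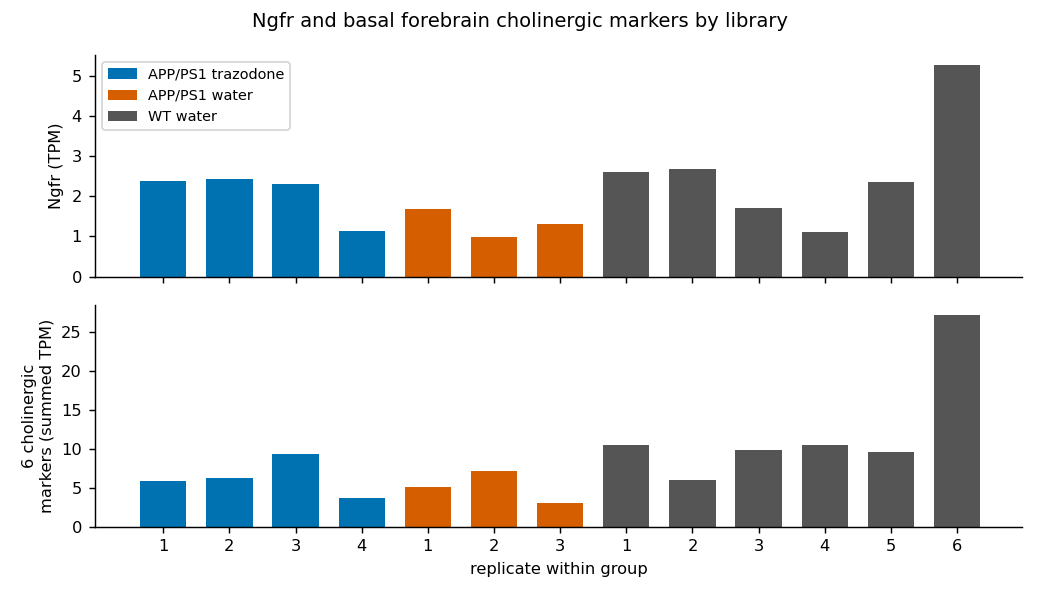
Level in TPM of Ngfr (top) and the summed TPM of 6 cholinergic markers, listed for the basal forebrain (bottom), in each of the 13 libraries, by group and replicate number. WT water library 6 is the highest bar in both panels, at 5.26 and 27.1 TPM.

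Gfra1, the preferred co-receptor of GDNF (chromosome 19, 58235604 to 58455909), did not pass the test. It had 39.3, 30.8, 31.3 and 34.2 TPM in APP/PS1 trazodone, against 38.3, 28.2 and 28.9 TPM in APP/PS1 water, and WT water ran from 26.9 TPM through a median of 32.5 TPM to 39.9 TPM. Each group had at least 1 library near the top of the range, and the groups overlapped. Its log2 fold change was 0.10 ± 0.14 with trazodone against APP/PS1 water (95% interval -0.20 to 0.40; adjusted p = 0.682) and -0.07 ± 0.13 in APP/PS1 water against WT water (-0.35 to 0.21; adjusted p = 0.729).

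Gfra2, the preferred co-receptor of neurturin (chromosome 14, 70890120 to 70979838, plus strand), was lower in both APP/PS1 groups than in WT. It had 50.5, 45.1, 48.7 and 48.4 TPM in APP/PS1 trazodone, against 43.6, 43.0 and 43.5 TPM in APP/PS1 water. The WT libraries were higher, with a lowest value of 56.3, a median of 56.5 and a highest value of 67.5 TPM. Each trazodone library was above each APP/PS1 water library and below each WT library, and 4 WT libraries lay within a narrow band at the bottom of their group. Gfra2 fell in APP/PS1 water against WT water, with a log2 fold change of -0.44 ± 0.07 (95% interval -0.59 to -0.30; limma adjusted p = 5.23e-04), a level 0.735 times that of WT. It also fell in APP/PS1 trazodone against WT water, by 0.30 ± 0.06 on the log2 scale (-0.43 to -0.16; adjusted p = 0.0234). The difference between the APP/PS1 groups, 0.15 ± 0.08 (-0.01 to 0.31), did not pass the test (adjusted p = 0.206). The libraries of these groups did not overlap, but the share of all genes with such groups was not counted.

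The correction for GC content and length changed the values of Gfra2 in the comparisons that use the APP/PS1 water libraries. The corrected log2 fold change of the gene, whose transcripts hold 53.3% GC, was -0.26 ± 0.07 in APP/PS1 water against WT water (adjusted p = 0.0288) and -0.31 ± 0.06 in APP/PS1 trazodone against WT water (adjusted p = 0.0195). With trazodone against APP/PS1 water it was -0.05 ± 0.08 (adjusted p = 0.799), on the other side of 0. The call in APP/PS1 trazodone against WT water was lost in 4 fits without 1 library: WT library 1 (adjusted p = 0.0556), or trazodone library 2 (0.0911), 3 (0.0560) or 4 (0.0661), with log2 fold changes of -0.32 to -0.26 over all 10 such fits. It was also lost with a block on the numbers in the sample titles (-0.33, adjusted p = 0.0816) or library names (-0.23, adjusted p = 0.190). The call in APP/PS1 water against WT water held in all 9 fits without 1 library, at -0.46 to -0.41.

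Some neuronal marker genes fell in APP/PS1 water against WT water, 1 of the comparisons in which Gfra2 was called. Of 14 excitatory neuron markers 10 fell in APP/PS1 water against WT water, where 17.5% of all genes fell. In APP/PS1 trazodone against APP/PS1 water 8 rose, where 12.5% of all genes rose. These counts were 1 and 0 after GC and length correction, where 12.6% and 4.08% of all genes were called in either direction. Against WT water, APP/PS1 trazodone, where Gfra2 was also called, had 0 of these 14 called, beside 2.23% of all genes. The median log2 fold change of the 14 was -0.01 there. The summed level of 14 inhibitory neuron markers was 1891 to 2024 TPM in APP/PS1 trazodone, 1558 to 1955 TPM in APP/PS1 water and 2088 to 2408 TPM in WT water. In APP/PS1 water against WT water 4 of them fell, where 17.5% of all genes fell, against 2 after correction. Of the inhibitory markers 1 fell in APP/PS1 trazodone against WT water, where 0.258% of all genes fell. The part of these neuronal markers in the Gfra2 values was not tested. In bulk tissue fewer cells of a type and less RNA per cell cannot be told apart. The genes whose centred profile over the 13 libraries lay nearest to that of Gfra2, among 13923 candidates, were Desi1 (root mean square difference 0.0806 on the log2 scale), Wdr4 (0.0817) and Me3 (0.0847).

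Among 5 other neurotrophic ligands tested, neurturin (Nrtn) was the 1 that fell in APP/PS1 water against WT water and the 1 that rose in APP/PS1 trazodone against APP/PS1 water, comparisons that share the APP/PS1 water libraries. Nrtn, the ligand that Gfra2 prefers, had 10.4, 9.42, 7.25 and 8.88 TPM in APP/PS1 trazodone, against 3.82, 4.82 and 4.15 TPM in APP/PS1 water. WT water ran from 6.99 TPM through a median of 9.86 TPM to 10.3 TPM. The APP/PS1 water libraries were apart from both other groups. The log2 fold change was 0.99 ± 0.15 with trazodone against APP/PS1 water (adjusted p = 9.30e-04) and -1.03 ± 0.14 in APP/PS1 water against WT water (adjusted p = 1.92e-04). The Nrtn transcripts hold 72.8% GC, and after GC and length correction the values were 0.10 (adjusted p = 0.835) and -0.31 (adjusted p = 0.242), neither a call. Gdnf, the ligand of Gfra1, averaged 0.276 TPM and Ntf5, a further ligand of TrkB, 0.193 TPM; both were under the minimum and were not tested.

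**Figure D4:**
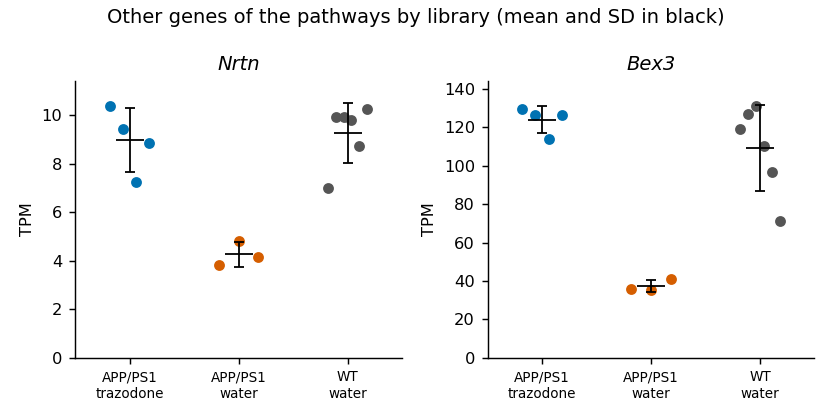
Level in TPM (vertical axes, each from 0) of Nrtn and Bex3 in every library, by group; points are libraries, black bars the mean and SD (4 APP/PS1 trazodone, 3 APP/PS1 water and 6 WT water). The APP/PS1 water libraries lie lowest in each panel, with means of 4.26 TPM for Nrtn and 37.4 TPM for Bex3.

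Of 10 other receptors and co-receptors tested, 5 fell and 0 rose in APP/PS1 water against WT water. Of all genes 17.5% fell and 6.19% rose there, and the median log2 fold change of the 10 was -0.34 beside -0.10 for all genes. Trazodone against APP/PS1 water gave 4 that rose and 0 that fell, where 12.5% and 3.92% of all genes did. After GC and length correction 0 of the 10 were called in either comparison, where 12.6% and 4.08% of all genes were. Lingo1 (0.76 ± 0.16 with trazodone against APP/PS1 water, -0.70 ± 0.15 in APP/PS1 water against WT water) and Rtn4r (0.50 ± 0.11 and -0.40 ± 0.10 in the same comparisons), partners of p75 in the Nogo receptor complex, were called in both. So were Sorcs2, a co-receptor for neurotrophin precursors (0.37 ± 0.11 and -0.49 ± 0.11), and Gfra4, the persephin co-receptor (0.30 ± 0.07 and -0.29 ± 0.07). With trazodone against APP/PS1 water the Sorcs2 call (limma adjusted p = 0.0404) was lost in 6 of 15 alternatives and 5 of 7 fits without 1 library. The fifth that fell was Sorcs3 (-0.50 ± 0.12), named after its value was seen. Ret, the kinase that works with Gfra1 and Gfra2, averaged 2.80 ± 0.536 TPM in APP/PS1 trazodone, 1.84 ± 0.333 TPM in APP/PS1 water and 2.94 ± 0.903 TPM in WT water (-0.53 ± 0.21 in APP/PS1 water against WT water, adjusted p = 0.0813). Sort1, which encodes sortilin, stood at -0.21 ± 0.08 in that comparison (adjusted p = 0.0619).

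Enzymes that cut or sort neurotrophin precursors included 3 genes that fell and 1 that rose among 9 tested in APP/PS1 water against WT water, where 17.5% of all genes fell and 6.19% rose. Furin, which cleaves proneurotrophins in the secretory pathway, fell by 0.37 ± 0.07 in that comparison on the log2 scale, and rose by 0.49 ± 0.08 in APP/PS1 trazodone against APP/PS1 water, the 1 gene of the list called there. The proprotein convertases Pcsk7 (-0.42 ± 0.09, limma adjusted p = 0.0042) and Pcsk5 (-0.36 ± 0.12, adjusted p = 0.0491) also fell in APP/PS1 water. The Pcsk5 call lay at the threshold and was lost in 10 of 15 alternatives and in 7 of 9 fits without 1 library. Carboxypeptidase E (Cpe), which sorts Bdnf to the regulated secretory pathway, rose by 0.26 ± 0.06, but stood at -0.07 under quantile normalization. After GC and length correction Furin (-0.07), Pcsk7 (-0.18) and Pcsk5 (-0.12) lost their calls between the water groups, while Cpe kept its call (0.32). Also called after correction were Pcsk6 (0.34), a convertase, and Serpini1 (-0.37), a protease inhibitor, both named after their values were seen. With trazodone against APP/PS1 water Furin was at 0.21 after correction and 0 of the 9 were called.

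Of 35 adaptors and kinases downstream of Trk receptors, 7 fell and 2 rose in APP/PS1 water against WT water, a count near the background of 17.5% of all genes lower and 6.19% higher. The counts were 1 lower and 4 higher after GC and length correction. With trazodone against APP/PS1 water 7 rose and 1 fell, where 12.5% of all genes rose and 3.92% fell. After correction 1 was higher and 2 were lower in that comparison. Shc2, a phosphotyrosine adaptor of neurons, was 0.47 ± 0.09 with trazodone against APP/PS1 water and -0.64 ± 0.09 in APP/PS1 water against WT water, and kept both calls after correction (0.32, adjusted p = 0.0323, and -0.49, adjusted p = 5.50e-04). Akt1, a kinase of the survival pathway, was 0.35 ± 0.06 and -0.35 ± 0.05 in the same comparisons, and -0.027 and -0.0016 after correction. Hras (0.41 ± 0.09 and -0.44 ± 0.09) and the adaptor Sh2b1 (0.49 ± 0.10 and -0.46 ± 0.09) also lost both calls after correction.

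Of 10 adaptors of p75, 3 fell in APP/PS1 water against WT water, where 17.5% of all genes fell. In APP/PS1 trazodone against APP/PS1 water 2 rose, where 12.5% of all genes rose. After correction 1 fell and 1 rose in these comparisons, where 12.6% and 4.08% of all genes were called in either direction. Bex3, which binds the intracellular part of p75, had 129.4, 126.6, 113.9 and 126.4 TPM in APP/PS1 trazodone, against 36, 35.2 and 40.9 TPM in APP/PS1 water. The WT libraries had a lowest value of 71.2, a median of 114.7 and a highest value of 131.1 TPM. APP/PS1 water was apart from both other groups, and trazodone lay within the WT range. The log2 fold change was 1.72 ± 0.16 with trazodone against APP/PS1 water (adjusted p = 5.92e-05) and -1.51 ± 0.15 in APP/PS1 water against WT water (adjusted p = 1.97e-05), and both calls held after correction, at 1.52 and -1.39. Arhgdia, through which p75 acts on RhoA (0.39 ± 0.08 and -0.32 ± 0.07 in the same comparisons), was at -0.02 and 0.04 after correction. Maged1, which also binds p75, was at -0.22 ± 0.06 in APP/PS1 water against WT water and was not called after correction.

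Some regulators of Bdnf transcription fell in APP/PS1 water, where Bdnf itself did not pass the test. Bdnf has 1 value per library, so transcripts from its several promoters cannot be told apart. Of 18 regulators, 5 fell and 0 rose in APP/PS1 water against WT water, where 17.5% of all genes fell, and 4 fell after correction. Npas4, an activity-induced factor that binds Bdnf promoters, was 0.97 ± 0.22 with trazodone against APP/PS1 water and -1.69 ± 0.20 in APP/PS1 water against WT water. Crtc1, a co-activator of CREB, was 0.45 ± 0.08 and -0.53 ± 0.08 in the same comparisons, and Mef2d, a factor that acts at the Bdnf locus, 0.39 ± 0.09 and -0.53 ± 0.09. Crebbp, the CREB-binding acetyltransferase, was -0.58 ± 0.15 in APP/PS1 water against WT water. All 4 kept their call in APP/PS1 water against WT water after correction, at -1.44 for Npas4, -0.19 for Crtc1, -0.26 for Mef2d and -0.36 for Crebbp. With trazodone against APP/PS1 water 4 of the 18 rose, namely Npas4, Crtc1, Mef2d and Usf1, where 12.5% of all genes rose. All 4 lost the call after correction, at 0.70 for Npas4, 0.16 for Crtc1, 0.14 for Mef2d and 0.08 for Usf1. The 2 called after correction were others, Carf (0.73) and Tcf4 (0.63), which like Usf1 were named after their values were seen.

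Of 24 activity- and Trk-induced genes, 14 fell and 0 rose in APP/PS1 water against WT water, where 17.5% of all genes fell. Their median log2 fold change was -0.61, and 10 fell after correction, where 12.6% of all genes were called in either direction. Trazodone against APP/PS1 water gave 4 that rose, where 12.5% of all genes rose, against 0 after correction. In APP/PS1 trazodone against WT water 6 fell, where 0.258% of all genes fell, against 7 after correction. Egr4 (0.96 ± 0.24 with trazodone against APP/PS1 water, -1.80 ± 0.22 in APP/PS1 water against WT water) and Junb (0.94 ± 0.26 and -1.83 ± 0.24) are immediate early transcription factors. With trazodone against APP/PS1 water the Junb call was lost in 4 of 7 fits without 1 library, and the Egr4 call in 2 of 7. Vgf (0.67 ± 0.16 and -0.97 ± 0.14) encodes a secreted peptide precursor that Bdnf induces in neurons. After correction these 3 kept their call in APP/PS1 water against WT water, at -1.16 for Egr4, -1.42 for Junb and -0.47 for Vgf. Npas4 is on this list as well as on that of the regulators. Without WT library 6 the comparison of the water groups called, in either direction, 1 of 5 ligands, 6 of 10 receptors and co-receptors and 4 of 9 processing enzymes. It also called 9 of 35 Trk adaptors and kinases, 3 of 10 adaptors of p75, 4 of 18 regulators and 15 of 24 induced genes. The share of all genes called in that fit is not given here.

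**Figure D5:**
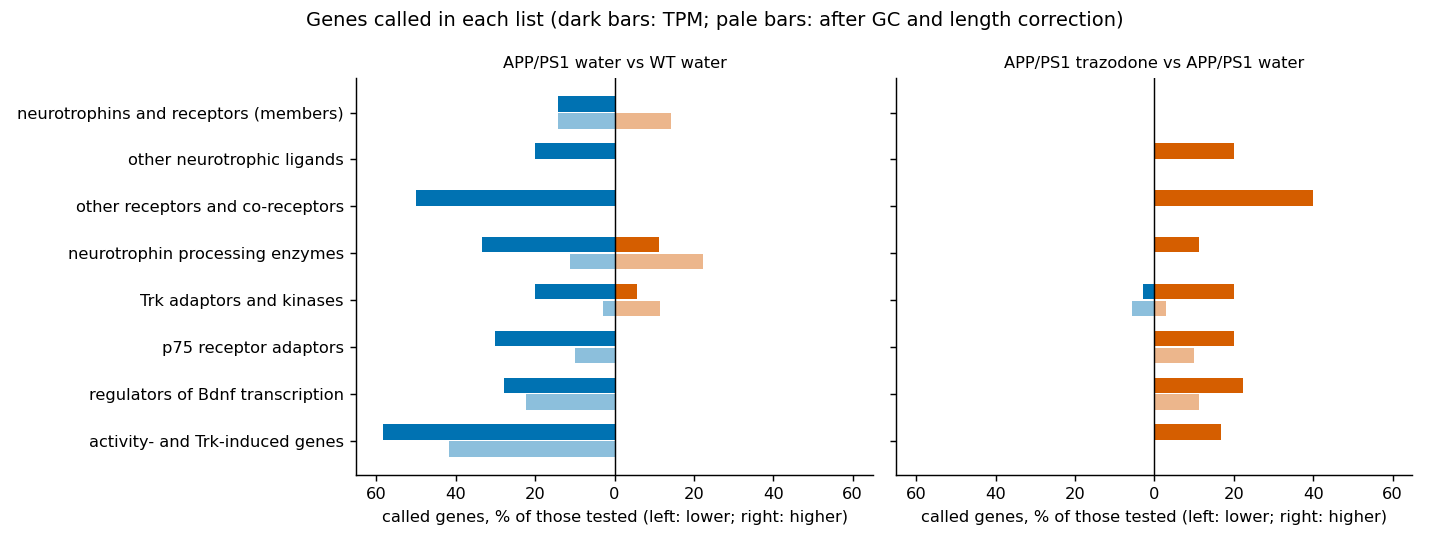
Share of the tested genes of each list that were called (horizontal axes, percent; lower to the left, higher to the right) in APP/PS1 water against WT water and in APP/PS1 trazodone against APP/PS1 water, from TPM (dark bars) and after GC and length correction (pale bars). The longest bar is that of the activity- and Trk-induced genes, 14 of 24 lower in APP/PS1 water, and 10 of 24 after correction.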

How the data were processed

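Per the labels' protocols, poly(A) RNA was sequenced as paired-end reads on a NextSeq or NovaSeq instrument, not stated by library. The tools fastp, STAR and DESeq2 and the build GRCm38 (mm10) are named by the authors, per the submitters' processing notes, without versions, annotation or quantifier. TPM and FPKM were deposited as 1 table each, of 53832 entries, 25412 of them merged transcript models. Depth is an estimate from the FPKM step that 1 fragment makes in 2424 single-exon genes (1000 bp or longer).

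For the 18612 genes whose mean reached 0.5 TPM, log2(TPM + 0.5) was fitted with limma 3.58.1 (R 4.3.3; lmFit, then eBayes with a trend) over all 13 libraries, two-sided, with Benjamini-Hochberg adjustment over all genes. Fold changes are on that scale, which understates low genes; errors are SE for fold changes and SD for levels. The steps were tested on simulated data. The GC and length correction subtracted from each library a loess trend (span 0.4) over 18253 genes. Coordinates, GC content and length came from GENCODE M21 by symbol. Alternatives were other pseudocounts, minimums, scalings, FPKM, weights, thresholds, blocks, and leaving out each library.

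The members, the gene lists and the naming rule were chosen with earlier results of these data known. The rule named all 7 members, the 4 genes per pathway list with the smallest p among those called, Ntf5, Gdnf, Ret and Sort1, up to 2 abundant genes per marker list and the 3 nearest profiles. App, Sorcs3, Pcsk6, Serpini1, Usf1, Carf, Tcf4 and the cholinergic markers outside it were named after their values were seen. A few genes of these lists are not reported here and are left out of the list counts. The deviations of 2 of 10 library pairs that share a title number had a correlation over 0.1 (mean 0.0299), against 3 of 44 pairs that do not (mean -0.0068). These few pairs cannot decide whether the numbers pair the libraries. No source states such a pairing, so no block was used in the main fit.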

Additional observations from a re-analysis of the deposited data

Results flagged for a closer look

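Among 22 sets of values (11 genes of the family and its partners in the 4 APP/PS1 trazodone and the 6 WT water libraries), 2 held a library far from the others of its group by Dixon's criterion, which chance meets in about 1 of 20 sets. Ngfr was lowest in APP/PS1 trazodone library 4, at 1.14 TPM. Sort1 was lowest in APP/PS1 trazodone library 4, at 202 TPM. The summed cholinergic markers were 3.74 TPM in trazodone library 4, the lowest of its group; their part in these values was not tested.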

How the results depend on the processing

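Of 497 recomputed values of the 7 genes, 450 kept their direction and their side of the threshold, 6 lost the call, 1 gained it and 40 changed sign; 0 of the 40 were calls, and the lowest adjusted p among them was 0.459. Depth and 3 to 6 libraries per group limit detection: the 95% intervals of the uncalled members span up to a log2 fold change of 1.37 in size.
In APP/PS1 water against WT water, 2 members were called after GC and length correction instead of 1 (Gfra2 lower and Ntrk2 higher). The share of all genes called was 12.6% after the correction and 23.7% before it. In APP/PS1 trazodone against WT water, 0 were called with either replicate block (Gfra2 at -0.33 with the block on title numbers and -0.23 with the block on library numbers) and 0 at an adjusted p under 0.01, and 0 to 1 without 1 library.
In APP/PS1 water against WT water, values that changed sign were Bdnf (-0.041) and Gfra1 (0.043) after GC and length correction, Ntrk3 and Gfra1 with FPKM (0.050 and 0.016), median-ratio scaling (0.065 and 0.030) and quantile normalization (0.091 and 0.038), and Ntrk3 when rescaled without mitochondrial, ribosomal protein and hemoglobin genes (0.027) and with the replicate block on library number (0.021). Leaving out 1 library gave ranges of -0.0017 to 0.17 for Bdnf, -0.012 to 0.16 for Ntrk2 and -0.21 to 0.0062 for Gfra1.
In APP/PS1 trazodone against APP/PS1 water, Ntrk3 changed sign with FPKM (-0.00883), median-ratio scaling (-0.027), quantile normalization (-0.053) and the rescaling (-0.014), and Gfra2 (-0.049) after GC and length correction. Leaving out 1 library gave -0.16 to 0.013 for Ntrk2 and -0.016 to 0.093 for Ntrk3.
In APP/PS1 trazodone against WT water, Ntf3 changed sign with FPKM (0.015), median-ratio scaling (0.019) and the block on library number (0.013), Ntrk2 with quantile normalization (-0.0057), and Ntrk3 (-0.0099) and Ngfr (0.034) with the block on title number. Leaving out 1 library gave -0.086 to 0.097 for Ntf3, -0.041 to 0.029 for Ntrk2, -0.053 to 0.055 for Ntrk3 and -0.045 to 0.081 for Gfra1.
The values of the other pathway genes and of the lists under the alternatives were chosen after seeing the data: of 1040 such values, 938 kept direction and call, 90 lost a call, 5 gained one and 7 changed sign. In APP/PS1 water against WT water these were Rtn4r (0.023) and Arhgdia (0.042) after GC and length correction and Cpe (-0.072) with quantile normalization. In APP/PS1 trazodone against APP/PS1 water these were Gfra4 (-0.037), Akt1 (-0.027) and Arhgdia (-0.022) after the correction, and Sort1 (-0.013) with quantile normalization.
Lists whose count of calls moved by over 1.5 times in APP/PS1 water against WT water were the ligands (2 with median-ratio scaling, 0 after correction), the receptors (3 with median-ratio scaling, 0 after correction), the Trk adaptors (5 after correction) and the p75 adaptors (1 with either). In APP/PS1 trazodone against APP/PS1 water the counts after correction were 0 ligands, 0 receptors, 0 processing enzymes, 3 Trk adaptors, 1 p75 adaptor, 2 regulators (neither among the 4 called before it) and 0 induced genes. Beyond what fewer tested genes give, the cause was not tested.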
